A study of Bos taurus with 28 samples.

Results

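Transcription factors set which genes a cell transcribes, and 46 genes named for transcription factor families were followed in bovine subcutaneous adipose tissue (AT) around calving. They were the genes whose official symbol starts with the prefix of a family (ZNF, ZBTB, FOX, SOX, HOX, KLF, TBX, GATA, NR, STAT, SMAD, TCF, ETV, POU, LHX, PAX, DLX, NKX, CEBP, PPAR, EGR, FOS or JUN) and that had at least 3 reads in at least 1 library. They were 46 of the 24616 genes listed and of the 18905 genes with that many reads. The symbol table paired 1863 of the listed genes with a usable symbol, so most genes of these families had no symbol here and are not analysed here. Genes with such a prefix and fewer reads were left out, and the members were 25 ZNF genes, 4 HOX genes, 4 genes of the nuclear receptor prefixes, 3 TCF genes, 2 SMAD genes, 2 ZBTB genes and 1 gene each of the FOX, KLF, ETV, TBX, GATA and NKX prefixes. No member carried a STAT, SOX, CEBP, EGR, FOS or JUN symbol.

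RNA-seq read counts came from biopsies of the right flank of healthy, multiparous, pregnant and then lactating Holstein cows. The 11 cows gave 9 libraries before calving (PreP, day -11), 10 soon after it (PP1, day 6) and 9 a week later (PP2, day 13), and 8 of the cows were sampled at all 3 time points. The labels give no treatment, so time around calving was the only contrast. The diet also changed at calving, and calving, the start of milking, the diet and repeated biopsy of the same flank cannot be told apart. Each library was made from 1 biopsy and held from 15293154 to 22284884 reads, with a median of 19088705.

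Nuclear receptors are ligand-regulated or orphan factors that bind DNA directly, and PPARG among them drives the formation of adipocytes. NR4A receptors are orphan members that are switched on within a short time of hormonal, mechanical or stress signals, as immediate early genes. SMAD proteins carry signals of bone morphogenetic proteins (BMP) and transforming growth factor beta from the cell surface to the nucleus. TCF7 binds DNA with beta-catenin in the response to Wnt ligands. HOX genes keep the positional identity of a tissue, and the many ZNF genes encode zinc finger proteins, a large share of them repressors.

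Levels are given as CPM, read counts scaled for library size and by the trimmed mean of M values, in which 3 reads of a library correspond to 0.127 to 0.200 CPM. No transcript length was used, so levels are compared between libraries and never between genes. Libraries were less alike at PP2 than before. The mean correlation of a library with the others of its time point, over 13644 genes with a mean of at least 1 CPM, ran from 0.910 to 0.948 at PreP, from 0.879 to 0.934 at PP1 and from 0.749 to 0.888 at PP2. The PP2 library of cow B5090 had the lowest value (0.749), and its 8 skeletal muscle markers summed to 9670 CPM, against a PP2 median of 15.3 CPM and a highest value of 22.0 CPM at the other time points. The PP2 libraries of cows B4886 (0.807) and B5064 (0.833) came next. Cow B5169 had the lowest value at PreP (0.910) and at PP1 (0.879). Where leaving out these libraries changed a call or moved a value by much, that value is given beside the result. Of the marker lists of the tissue, 5 of 11 adipocyte markers had an ID and were read in the libraries, with FFAR4 at 0 reads in 2 PP1 libraries, and epithelial milk protein CSN2 had at most 1 read.

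For most of the 46 genes, differences between time points were small beside the spread between cows. At PP1 against PreP, 0 of 46 members were differentially expressed genes (DEGs: edgeR quasi-likelihood test, FDR under 0.05 and absolute log2 fold change over 1), where 4.03% of the 18467 genes tested were. HOXA7 passed the FDR alone and was lower, where 1.43% of all genes passed the FDR and were lower. At PP2 against PreP, 2 of the 44 members tested were DEGs, the orphan receptors NR4A1 and NR4A3, both higher, where 5.47% of 18558 genes were DEGs and 3.52% were higher DEGs. The share of members, 2 of 44, was near the background. HOXC12 and HOXC13 had too few reads to be tested in the latter comparison. At PP2 against PP1, 0 of 46 members were DEGs, and so were 0 of 18518 genes (0.0%). DESeq2, the edgeR likelihood ratio test and limma voom gave 0, 2 and 0 members in the 3 comparisons as well.

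Counted at an unadjusted p under 0.05, 8 members differed at PP1 (6 higher, 2 lower) and 6 at PP2 (3 higher, 3 lower), which is 17.4% and 13.6% of those tested beside 24.6% and 21.4% of all genes. Of the 6 higher at PP1, 2 were HOXC12 and HOXC13, whose reads lay in 2 PP1 libraries near the floor. Among the 39 members with a mean of at least 1 CPM there were 6 at PP1 (4 higher, 2 lower), or 15.4%, beside 27.7% of 13626 such genes. At PP2 against PP1 it was 1 member (2.17%) beside 5.6% of all genes. The low share of the members lay in the ZNF genes, with 8.0% at PP1 and 0.0% at PP2. Of the members outside ZNF, 28.6% of 21 at PP1 and 31.6% of 19 at PP2 differed, HOXC12 and HOXC13 among them at PP1. The median size of the difference was smaller for the members than for all genes. The median absolute log2 fold change was 0.22 for members and 0.32 for all genes at PP1, and 0.17 and 0.36 at PP2. For the members outside ZNF it was 0.28 at PP1 and 0.31 at PP2. Among genes with a mean of at least 1 CPM, 39 members had a median of 0.17 at both time points, where all such genes had 0.25 and 0.29. The range of each member overlapped between any 2 time points, as it did for nearly all genes, since 0.0325% were wholly above and 0.00542% wholly below PreP at PP1, and 0.0162% and 0.135% at PP2. Between PP2 and PP1 these shares were 0.0054% and 0.0%. Both comparisons share the PreP libraries and are not independent of each other.

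**Figure D1:**
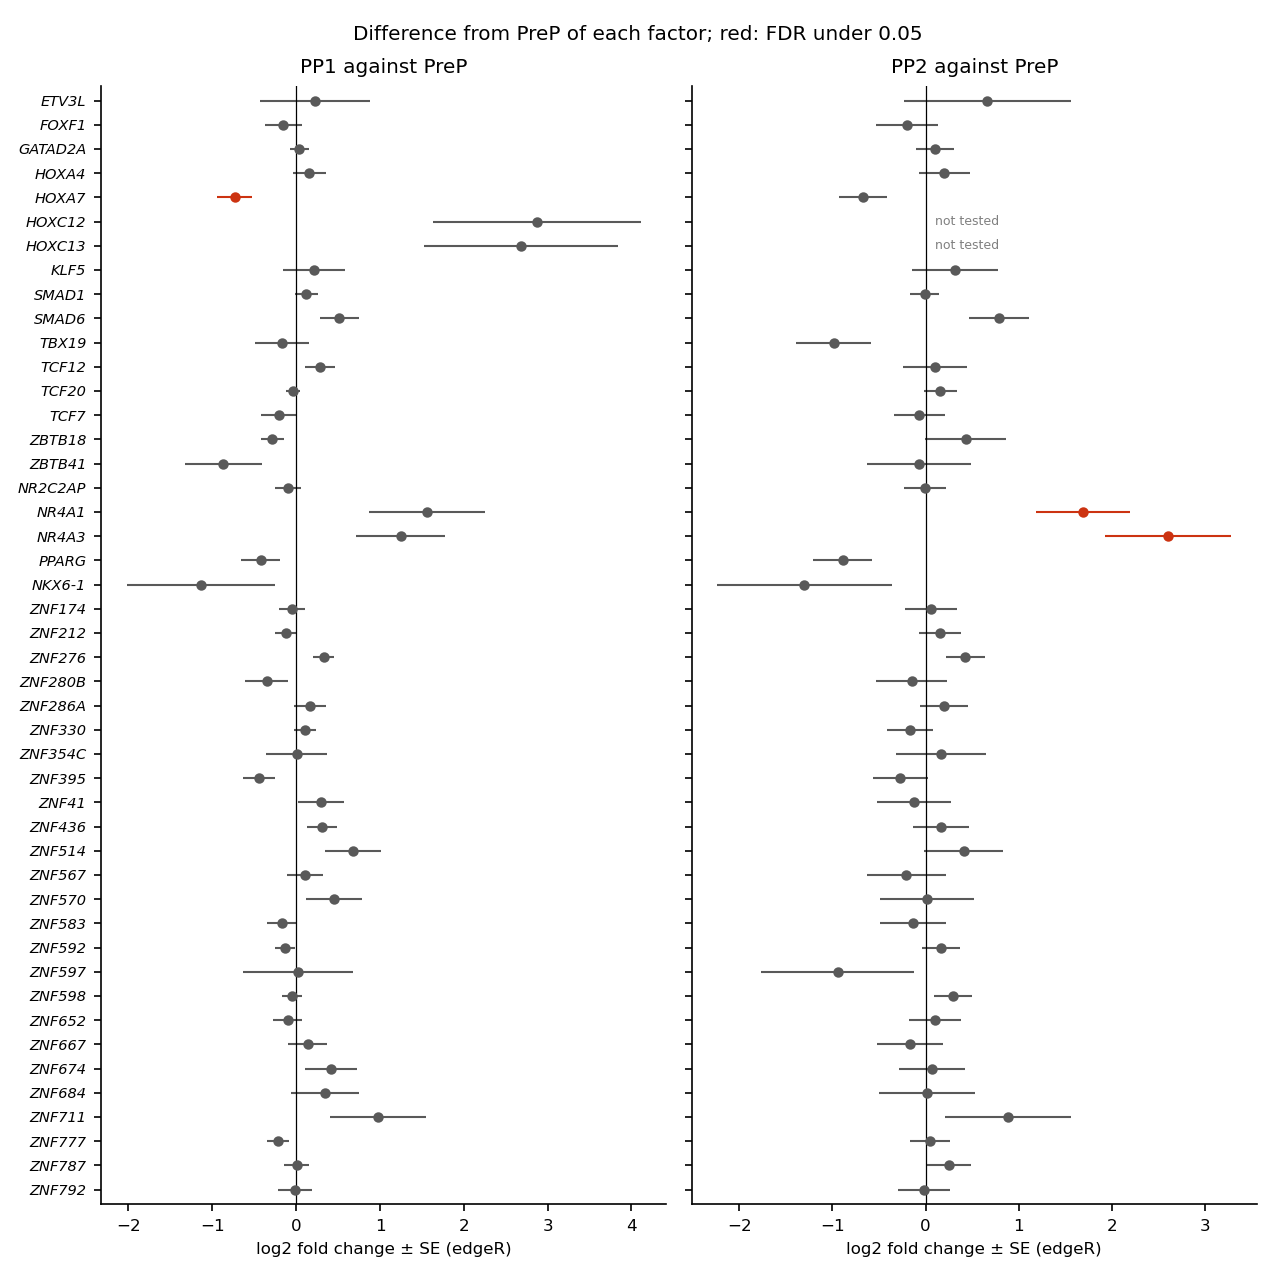
Log2 fold change of each of the 46 members against PreP with its standard error (x axis) at PP1 and at PP2, from the edgeR fits, with ZNF genes in the lower part. HOXA7 at PP1 and NR4A1 and NR4A3 at PP2 are drawn in red (FDR under 0.05), and most other members lie close to 0.

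NR4A1 (ENSBTAG00000000507), the orphan receptor also called Nur77, had 8.74 to 147 CPM at PreP (median 48.6), 17.6 to 1007 CPM at PP1 (median 56.1) and 54.8 to 584 CPM at PP2 (median 101). The lowest PP2 library stood above the PreP median, but the groups overlapped, and a single PP1 library, of cow B5090, held the value of 1007 CPM. NR4A1 was higher at PP2 than at PreP by 1.69 ± 0.504 on the log2 scale (SE, edgeR FDR 0.0478), and in 7 of the 8 cows with both samples. A two-sided exact permutation test that split the libraries without regard to cow, as did all such tests between time points here, gave p = 0.0071. At PP1 the difference was 1.56 ± 0.692 with an edgeR FDR of 0.166 and an exact permutation p of 0.31, and 0.41 (FDR 0.703) without cow B5090. Without cow B5169, whose PreP library was the highest at that time point, it was 2.02 with an FDR of 0.0485.

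The call for NR4A1 at PP2 sat close to the threshold. With cow as a block the difference was 1.66 and the edgeR FDR 0.0667. The FDR lay between 0.0626 and 0.169 when any of cows B4886, B4987, B5064, B5102, B5129, B5165 or B5176 was left out, and the difference was smallest without cow B5165 (1.22), the cow with the highest PP2 library. Without the PP2 libraries of cows B4886 and B5064 it was 1.91 (FDR 0.0361).

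NR4A3 (ENSBTAG00000001864), the related receptor also called NOR1, had 0.527 to 3.02 CPM at PreP (median 1.96), 0.291 to 11.4 CPM at PP1 (median 4.20) and 0.904 to 38.6 CPM at PP2 (median 5.20). Cows B4987 and B5165 held the highest PP2 values, 38.6 and 35.6 CPM, and the next value was 7.0 CPM. NR4A3 was higher at PP2 than at PreP by 2.60 ± 0.678 on the log2 scale (SE, edgeR FDR 0.0263), with an exact permutation p of 0.028, and was so in 6 of 8 cows. With cow as a block the difference was 1.60 and the FDR 0.255. Left out 1 at a time, cow B4987 gave 2.09 (FDR 0.0905), cow B5165 2.15 (FDR 0.0882), cow B5129 2.58 (FDR 0.0626) and cow B5176 2.48 (FDR 0.0526). At PP1 the difference was 1.25 ± 0.528 (FDR 0.148, exact permutation p = 0.23). It was 1.39 (FDR 0.0461) without the PP1 library of cow B5169, which was the lowest of its time point. With cow as a block it was 0.66 (FDR 0.594).

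**Figure D2:**
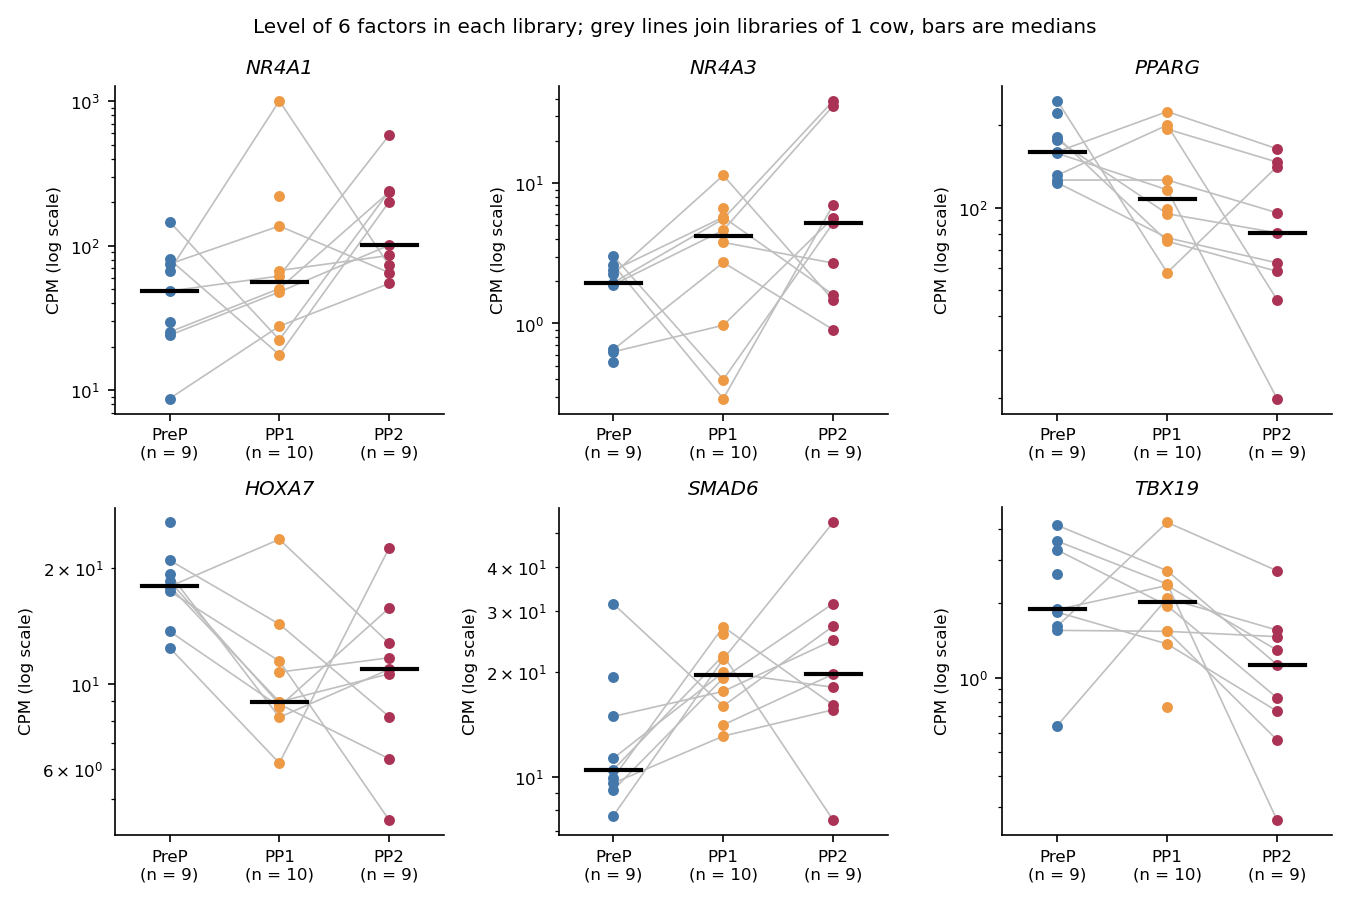
CPM on a log axis (y) of NR4A1, NR4A3, PPARG, HOXA7, SMAD6 and TBX19 in each library at PreP (n = 9), PP1 (n = 10) and PP2 (n = 9), with grey lines joining libraries of 1 cow and bars at the medians. The medians of NR4A1 and NR4A3 at PP2 were 101 and 5.20 CPM, that of PPARG went from 160 CPM at PreP to 80.8 CPM at PP2, and all groups overlapped.

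Within a time point, libraries with much NR4A1 also had much NR4A3. On log2 CPM, Pearson's r was 0.792 at PreP (permutation p = 0.00793, n = 9), 0.829 at PP1 (permutation p = 0.00298, n = 10) and 0.771 at PP2 (permutation p = 0.0152, n = 9). Adjusted over the 9 relations computed, these were 0.0357, 0.0268 and 0.0456. Spearman's rho was 0.850 at PreP (permutation p = 0.00607), 0.939 at PP1 (permutation p = 0.00018) and 0.583 at PP2 (permutation p = 0.108). Without the 2 libraries farthest from the median of NR4A1, r was 0.761, 0.896 and 0.638. At PP2 it was 0.747 without cow B5090 and 0.773 without cows B4886 and B5064. The relations of SMAD1 with SMAD6 and of HOXA4 with HOXA7 did not pass an adjusted p of 0.05 at any time point.

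**Figure D3:**
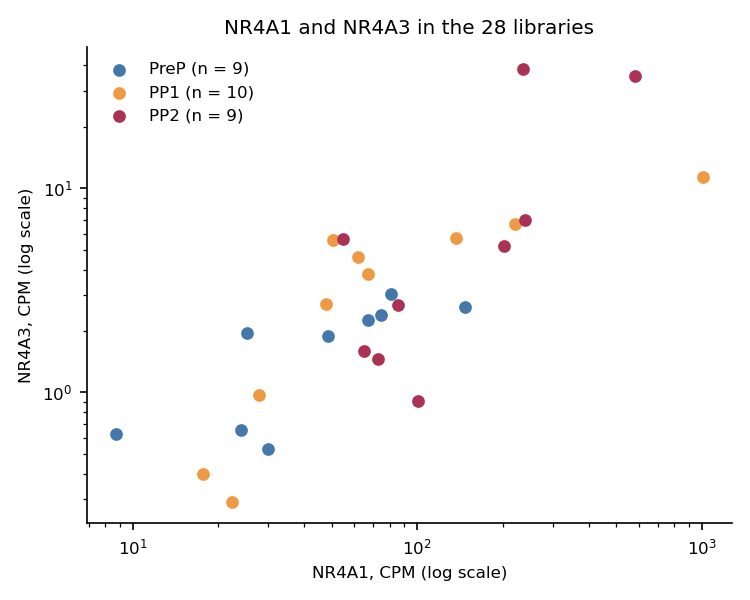
CPM of NR4A1 (x, log axis) and NR4A3 (y, log axis) in the 28 libraries, coloured by time point. Libraries high in NR4A1 were high in NR4A3 at each time point, with r of 0.792 at PreP, 0.829 at PP1 and 0.771 at PP2.

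Among 1481 genes with a symbol and a mean of at least 1 CPM, the patterns most like that of NR4A1 over the 28 libraries were those of PPP1R15A (r = 0.814), a stress-induced phosphatase subunit, NR4A3 (r = 0.813) and ADAMTS1 (r = 0.713), an extracellular protease. These values are a description, since the libraries share cows, depth and scaling. Of 14 other immediate early and stress response genes with an ID, 0 were DEGs at PP1 and 1 was at PP2, beside 4.03% and 5.47% of all genes. This was PIM1, a serine/threonine kinase, at 19.8, 33.6 and 45.8 CPM (medians at PreP, PP1 and PP2), which was higher at PP2 by 1.02 (edgeR FDR 0.0332), with an FDR of 0.0713 with cow as a block and 0.0771 without the PP2 libraries of cows B4886 and B5064. PPP1R15A passed the FDR at PP2 with 0.85 (FDR 0.0385), and had an FDR of 0.0605 without those 2 libraries. The median log2 fold change of the 14 genes at PP2 was 0.15, beside 0.10 for all genes, and that of IL1B, an inflammatory cytokine, was 0.56 with an FDR of 0.601.

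PPARG, the receptor that directs adipocyte differentiation and lipid storage, had 123 to 246 CPM at PreP (median 160), 57.8 to 225 CPM at PP1 (median 108) and 20.0 to 164 CPM at PP2 (median 80.8). Most PP2 libraries had less than any PreP library, and the PP2 library of cow B4886 was the lowest. The difference from PreP was -0.42 ± 0.233 on the log2 scale at PP1 (SE, edgeR FDR 0.269, exact permutation p = 0.052) and -0.89 ± 0.314 at PP2 (edgeR FDR 0.0917, exact permutation p = 0.0028). PPARG was lower at PP2 in 7 of 8 cows and did not pass the FDR. The 95% interval of the PP2 difference ran from -1.51 to -0.28. Without cow B5169 the PP2 difference was -1.08 with an FDR of 0.0407, DESeq2 gave -0.90 with an adjusted p of 0.0402, and without the PP2 libraries of cows B4886 and B5064 the edgeR difference was -0.68 (FDR 0.125).

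In bulk tissue, fewer cells of a type and less RNA per cell cannot be told apart. The 5 adipocyte markers with an ID summed to 935 to 3580 CPM at PreP (median 1610), 256 to 2410 CPM at PP1 (median 1050) and 362 to 1980 CPM at PP2 (median 815). Most of this sum was RBP4, a retinol carrier, with medians of 1280, 788 and 589 CPM. The other 4 (PCK1, HCAR1, FFAR4 and ANGPTL4) summed to medians of 269, 263 and 300.0 CPM, and among them PCK1 and FFAR4 fell and ANGPTL4 rose at PP2. The 7 macrophage markers with an ID, of 13 listed, summed to 144 to 324 CPM at PreP (median 251), 157 to 1090 CPM at PP1 (median 682) and 127 to 477 CPM at PP2 (median 384). The 5 fibroblast and preadipocyte markers, of 7 listed, had medians of 2460, 4130 and 4060 CPM. At PP1, the library of cow B5169 had the lowest macrophage and fibroblast sums and the highest PPARG and HOXA7. The part of cell type proportions in the differences of PPARG, HOXA7, SMAD6 and the NR4A genes was not tested.

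Genes that PPARG is known to regulate or that mark adipocytes moved in both directions. Of 12 with an ID, 1 was a higher DEG at PP1, and at PP2 2 were higher and 3 lower, where 4.03% and 5.47% of all genes were DEGs. With cow as a block there were 0 at PP1, and 1 higher and 3 lower at PP2, beside 0.314% and 2.2% of all genes. PCK1, an enzyme of the pathway that supplies the glycerol backbone of stored fat, had medians of 117, 7.96 and 12.7 CPM. It was lower at PP2 by 2.96 on the log2 scale (log2 fold change -2.96, edgeR FDR 0.00238). FFAR4, a fatty acid receptor, was lower at PP2 (log2 fold change -2.48, FDR 0.0377), and so was ACAA2, a mitochondrial enzyme of fatty acid oxidation (-1.04, FDR 0.0420). PLTP, a phospholipid transfer protein, was higher at PP1 (1.31, FDR 0.0114) and PP2 (1.35, FDR 0.0251), and had FDRs of 0.118 and 0.0631 with cow as a block. ANGPTL4, an inhibitor of lipoprotein lipase, was higher at PP2 (1.18, FDR 0.0237). Without the PP2 libraries of cows B4886 and B5064 the PP2 FDR was 0.0622 for FFAR4, 0.0596 for ACAA2 and 0.0721 for PLTP. The median log2 fold change of the 12 genes was -0.49 at PP1 and -0.14 at PP2, beside 0.04 and 0.10 for all genes. The patterns most like PPARG over the 28 libraries were those of PPP2R5A, a phosphatase subunit (r = 0.932), GNAI1, an inhibitory G protein subunit (r = 0.924), and ACAA2 (r = 0.892).

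KLF5, a zinc finger factor that acts early in adipocyte formation, had medians of 4.99, 4.50 and 4.47 CPM at PreP, PP1 and PP2. Its spread was wide, from 1.58 to 8.58 CPM at PreP, from 1.66 to 12.7 CPM at PP1 and from 1.11 to 17.5 CPM at PP2, and the highest library was that of cow B5090 at PP2. The log2 fold change was 0.22 at PP1 (edgeR FDR 0.760) and 0.31 at PP2 (FDR 0.775), with a 95% interval from -0.59 to 1.21 at PP2, while the medians were slightly lower than at PreP. Without the PP2 library of cow B5090 the PP2 difference was -0.03. The patterns most like KLF5 were those of SNX27 (r = 0.802), SESN1 (r = 0.775) and NBR1 (r = 0.737).

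SMAD6, an inhibitory SMAD that dampens BMP signals, had 7.73 to 31.4 CPM at PreP (median 10.5), 13.1 to 27.0 CPM at PP1 (median 19.6) and 7.50 to 53.8 CPM at PP2 (median 19.7). The PP1 libraries were all above the PreP median, and the PreP library of cow B5169 was above all PP1 libraries. SMAD6 was higher in 7 of 8 cows at PP1, with 0.52 ± 0.233 (SE, log2, edgeR FDR 0.173, exact permutation p = 0.018). At PP2 it was higher in 6 of 8 cows, with 0.79 ± 0.324 (FDR 0.153, exact permutation p = 0.042). Neither passed the FDR. Without cow B5169 the PP1 difference was 0.80 with an FDR of 0.00545, and limma voom with quality weights gave 0.80 at PP1 (adjusted p 0.00392) and 0.92 at PP2 (adjusted p 0.0207). Without the PP2 libraries of cows B4886 and B5064, of which the latter was the highest, the PP2 difference was 0.51 (FDR 0.319).

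SMAD1, which carries BMP signals to the nucleus, had medians of 57.8, 60.8 and 58.3 CPM, within 36.5 to 93.3 CPM over all libraries. Its log2 fold change was 0.12 at PP1 (95% interval -0.14 to 0.38) and -0.01 at PP2 (-0.31 to 0.30), and its coefficient of variation of 22.2% at PP2 was the smallest of the 39 members, while without the PP2 libraries of cows B4886 and B5064 it was 13.2% and that of GATAD2A was the smallest (9.84%). The patterns most like it were those of EXOSC10 (r = 0.661), SUGT1 (r = 0.656) and CBX1 (r = 0.655), and without those 2 libraries r was 0.501, 0.413 and 0.415. Of 12 other genes of the BMP and transforming growth factor beta pathway, 0 were DEGs at either time point, at an unadjusted p under 0.05 there were 4 and 3, beside 24.6% and 21.4% of all genes, and 1 passed the FDR at PP1. This was LRRC32, a carrier of latent transforming growth factor beta, with medians of 24.1 and 46.3 CPM at PreP and PP1 and a log2 fold change of 0.84 (edgeR FDR 0.0351, and 0.101 with cow as a block). BAMBI, a decoy receptor, had -0.74 at PP1 with an FDR of 0.0578.

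HOXA7, a clustered homeobox gene of positional identity, had 12.4 to 26.2 CPM at PreP (median 17.9), 6.21 to 23.7 CPM at PP1 (median 8.97) and 4.42 to 22.5 CPM at PP2 (median 10.9). Apart from the library of cow B5169 at 23.7 CPM, most PP1 libraries lay below the lowest PreP library. HOXA7 fell at PP1 by 0.73 ± 0.208 on the log2 scale (log2 fold change -0.73, SE, edgeR FDR 0.0408, exact permutation p = 0.0018) and was lower in 7 of 8 cows, which is under the fold threshold of a DEG. At PP2 the difference was -0.67 ± 0.257 (FDR 0.125, exact permutation p = 0.0056). With cow as a block the PP1 difference was -0.71 with an FDR of 0.0848. The PP1 FDR stayed under 0.05 without cow B5079 or cow B5169, and lay between 0.0624 and 0.109 without any of the other 9 cows. At PP2 the FDR was 0.0454 without cow B5064 and 0.0173 without the PP2 libraries of cows B4886 and B5064, with a difference of -0.97 in the latter.

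HOXA4, a neighbour of HOXA7 in the same gene cluster, had medians of 7.60, 8.14 and 8.27 CPM, with log2 fold changes of 0.16 at PP1 and 0.20 at PP2 (edgeR FDR 0.658 and 0.753). HOXC12 and HOXC13, posterior genes of another cluster, had 0 reads in all 9 PreP libraries. HOXC12 had 1 and 7 reads in 2 PP1 libraries and 1 read in 1 PP2 library, and HOXC13 had 5 and 2 reads in 2 PP1 libraries and 1 read in 1 PP2 library. These reads came from few libraries near the floor of 3 reads, and no fold change is given. The exact permutation p at PP1 was 0.47 for each of these 2 genes.

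FOXF1, a forkhead factor of mesenchyme, had medians of 9.09, 8.41 and 6.71 CPM and log2 fold changes of -0.15 and -0.20 (edgeR FDR 0.711 and 0.809). TBX19, a T-box factor best known from the corticotroph cells of the pituitary, had 0.642 to 4.14 CPM at PreP (median 1.89), 0.761 to 4.25 CPM at PP1 (median 2.03) and 0.266 to 2.71 CPM at PP2 (median 1.13). It was low in all libraries but above the floor of 3 reads. TBX19 at PP2 was lower than at PP1 in 9 of 9 cows, by a log2 fold change of -0.85 ± 0.373 (SE). The exact permutation p, which ignored the pairing by cow, was 0.018, while the edgeR FDR over all genes was 0.805. Against PreP it was -0.99 ± 0.404 at PP2 (FDR 0.153), lower in 6 of 8 cows. It was the member with an unadjusted p under 0.05 between PP2 and PP1.

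TCF12, a basic helix-loop-helix factor that pairs with cell type factors, had medians of 47.4, 55.2 and 57.8 CPM, and was higher at PP1 in 7 of 8 cows with 0.28 ± 0.182 (SE, log2, edgeR FDR 0.346). TCF7, which binds DNA with beta-catenin in Wnt signalling, had medians of 17.5, 14.4 and 14.8 CPM, and log2 fold changes of -0.21 and -0.07 (FDR 0.581 and 0.929). TCF20, a chromatin-associated coregulator that shares the prefix but not the family, had the smallest coefficient of variation of the 39 members at PreP (8.78%) and PP1 (5.94%). Its medians were 59.8, 58.0 and 59.2 CPM, and its log2 fold change was -0.04 at PP1 (95% interval -0.20 to 0.12) and 0.16 at PP2 (-0.19 to 0.51). Of the Wnt pathway genes with an ID, 0 of 13 tested were DEGs at PP1 and 1 of 14 was at PP2, beside 4.03% and 5.47% of all genes. At an unadjusted p under 0.05, 4 differed at PP1 (30.8%, beside 24.6% of all genes) and 6 at PP2 (42.9%, beside 21.4%). All of these were higher, where 2627 of 18467 genes were higher at that p at PP1 and 2512 of 18558 at PP2. WNT7A was counted at both time points, with 0 CPM in all PreP libraries and at most 0.355 CPM at PP1 and 0.154 CPM at PP2. TLE1, a corepressor that binds TCF proteins, passed the FDR at both time points, with medians of 14.3, 28 and 30.7 CPM and log2 fold changes of 0.84 (edgeR FDR 0.0118) and 1.08 (FDR 0.00599), and with cow as a block the FDRs were 0.0826 and 0.0519. FZD7, a Wnt receptor, passed the FDR at PP2 with 0.83 (FDR 0.0266, and 0.158 with the block).

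ZBTB18, a zinc finger repressor known from brain and muscle development, had 11.0 to 21.1 CPM at PreP (median 17.1), 10.8 to 17.9 CPM at PP1 (median 14.1) and 4.81 to 108 CPM at PP2 (median 14.0). The value of 108 CPM belonged to the PP2 library of cow B5090, whose skeletal muscle markers summed to 9670 CPM, and the next PP2 value was 20.0 CPM. ZBTB18 was lower at PP1 in 7 of 8 cows, with -0.28 ± 0.137 on the log2 scale (SE, edgeR FDR 0.207, exact permutation p = 0.033). At PP2 the difference was 0.43 (FDR 0.643, exact permutation p = 0.78), and -0.38 (FDR 0.430) without the PP2 library of cow B5090, so its sign rested on that library. Of the 8 skeletal muscle markers with an ID, of 15 listed, MYOD1 had 0 reads in all PreP libraries and in 9 PP1 and 8 PP2 libraries. Without the PP2 library of cow B5090, 2 members were DEGs at PP2, as with all libraries, and the share of all genes called in that fit is not given here. ZBTB41, a related factor of unknown role here, had medians of 0.810, 0.751 and 0.977 CPM, and log2 fold changes of -0.87 (FDR 0.248) and -0.07 (FDR 0.968).

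**Figure D4:**
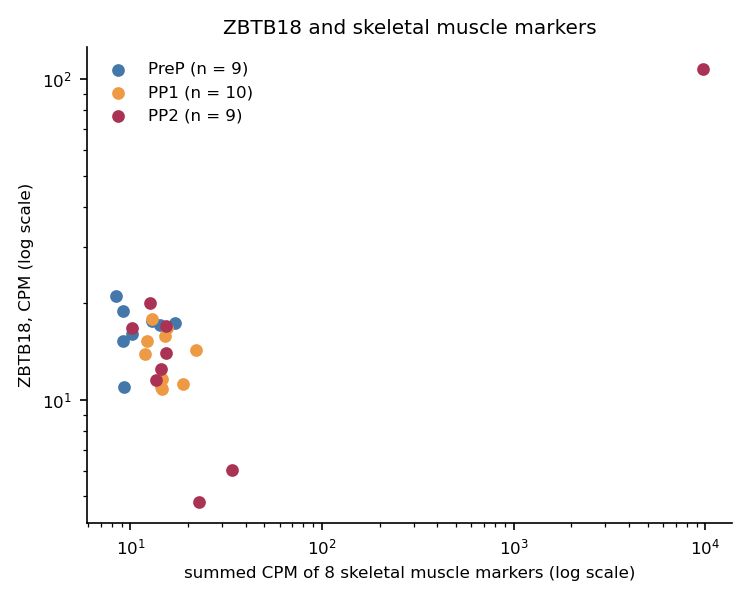
Summed CPM of the 8 skeletal muscle markers (x, log axis) and CPM of ZBTB18 (y, log axis) in the 28 libraries, coloured by time point. The PP2 library of cow B5090 stands apart at 9670 and 108 CPM, and the other libraries lie at or below 33.8 CPM of the markers and 21.1 CPM of ZBTB18.

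None of the 25 ZNF genes passed the FDR in any comparison by the edgeR quasi-likelihood test. At an unadjusted p under 0.05 there were 2 at PP1 (8.0%), 0 at PP2 and 0 between PP2 and PP1, beside 24.6%, 21.4% and 5.6% of all genes. Their median log2 fold change was 0.02 at PP1 and 0.06 at PP2, and their median absolute value was 0.17 at both. ZNF276, with medians of 41.8, 44.4 and 52.2 CPM, was higher at PP1 in 7 of 8 cows by 0.33 ± 0.125 (SE, log2, edgeR FDR 0.109, exact permutation p = 0.0072). At PP2 it had 0.43 ± 0.209 (FDR 0.241, exact permutation p = 0.12), and 0.16 without the PP2 libraries of cows B4886 and B5064. ZNF395, with medians of 55.6, 45.0 and 52.3 CPM, had -0.44 ± 0.194 at PP1 (FDR 0.162) and -0.27 at PP2 (FDR 0.670).

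ZNF598, which carries a ZNF symbol and is known as a ubiquitin ligase that senses collided ribosomes, had medians of 75.9, 73.3 and 87.5 CPM and log2 fold changes of -0.05 and 0.29 (edgeR FDR 0.827 and 0.452). ZNF597 was near the floor, with at most 6 reads in a library and 0 reads in 2 PreP, 2 PP1 and 5 PP2 libraries. The 22 members not described singly, which are ZNF genes apart from ETV3L, had log2 fold changes from -0.35 (ZNF280B) to 0.97 (ZNF711) at PP1 and from -0.21 (ZNF567) to 0.89 (ZNF711) at PP2. ZNF711 had medians of 0.834, 1.02 and 0.977 CPM and a range at PP2 from 0.0616 to 3.62 CPM, so its fold changes lay within a wide spread between libraries.

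Members that match a prefix without being a factor of that family did not pass the test. GATAD2A, a subunit of the NuRD chromatin complex, had medians of 109, 113 and 94.7 CPM with log2 fold changes of 0.04 and 0.10 (edgeR FDR 0.866 and 0.846), and 95% intervals from -0.19 to 0.27 and from -0.30 to 0.50. NR2C2AP, a protein that binds the receptor NR2C2, had medians of 7.27, 6.40 and 6.05 CPM, and its highest library was at PP2, with 13.1 CPM in cow B5064. Among factors of low counts, NKX6-1, a homeobox gene of pancreas and neural tube, had at most 18 reads, in the PreP library of cow B5064, and 0 reads in 3 PreP, 5 PP1 and 5 PP2 libraries. ETV3L, an ETS factor, had at most 15 reads, in the PP2 library of cow B5165, and 0 reads in 4 PreP and 3 PP2 libraries.

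Members varied widely between libraries of the same time point. The median coefficient of variation of the 39 members with a mean of at least 1 CPM was 28.8% at PreP, 27.5% at PP1 and 50.6% at PP2, and for all 13644 such genes it was 28.8%, 30.4% and 48.8%. NR4A1 varied most at PreP (75.2%) and PP1 (182%), and ZBTB18 most at PP2 (137%). Without the PP2 library of cow B5090 the value of ZBTB18 was 41.5%, and NR4A3 varied most at PP2 (128%). Without the PP2 libraries of cows B4886 and B5064 the PP2 median was 35.6% for the members and 33.9% for all genes, and with that of cow B5090 left out too they were 32.5% and 28.2%. At PP2, the library of cow B4886 had the lowest value of 17 of the 39 members and that of cow B5064 the highest of 14. At PreP, the library of cow B5169 had the lowest value of 11 members and the highest of 9. The share of all genes at an extreme in these libraries is not given here, and they were also among the least alike over all genes.

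After removal of the time point means, many pairs of members moved together or oppositely between libraries, and such pairs were far fewer without the PP2 libraries of cows B4886 and B5064. Of 741 pairs of members, 23.2% had a Pearson r over 0.5 and 19.3% an r under -0.5 over the 28 libraries, where pairs of all genes had 13.3% and 11.1%. Among the 253 pairs of the 23 ZNF genes the shares were 35.2% and 26.1%. Without the PP2 libraries of cows B4886 and B5064 the shares were 10.4% and 4.99% for members, 17.8% and 7.51% for ZNF genes, and 7.08% and 5.53% for all genes. The closest pairs were ZNF212 with ZNF592 (r = 0.925), ZNF570 with ZNF280B (r = 0.876) and ZNF777 with ZNF787 (r = 0.874). The most opposed pairs were TCF20 with ZNF583 (r = -0.844), ZNF280B with GATAD2A (r = -0.843) and TCF12 with GATAD2A (r = -0.832). Without those 2 libraries r was 0.865, 0.802 and 0.779 for the former pairs, and -0.481, -0.648 and -0.487 for the latter. These correlations are descriptions without a test, since all genes of a library share its RNA, depth and scaling, and the length and base composition of the transcripts were not examined here.

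**Figure D5:**
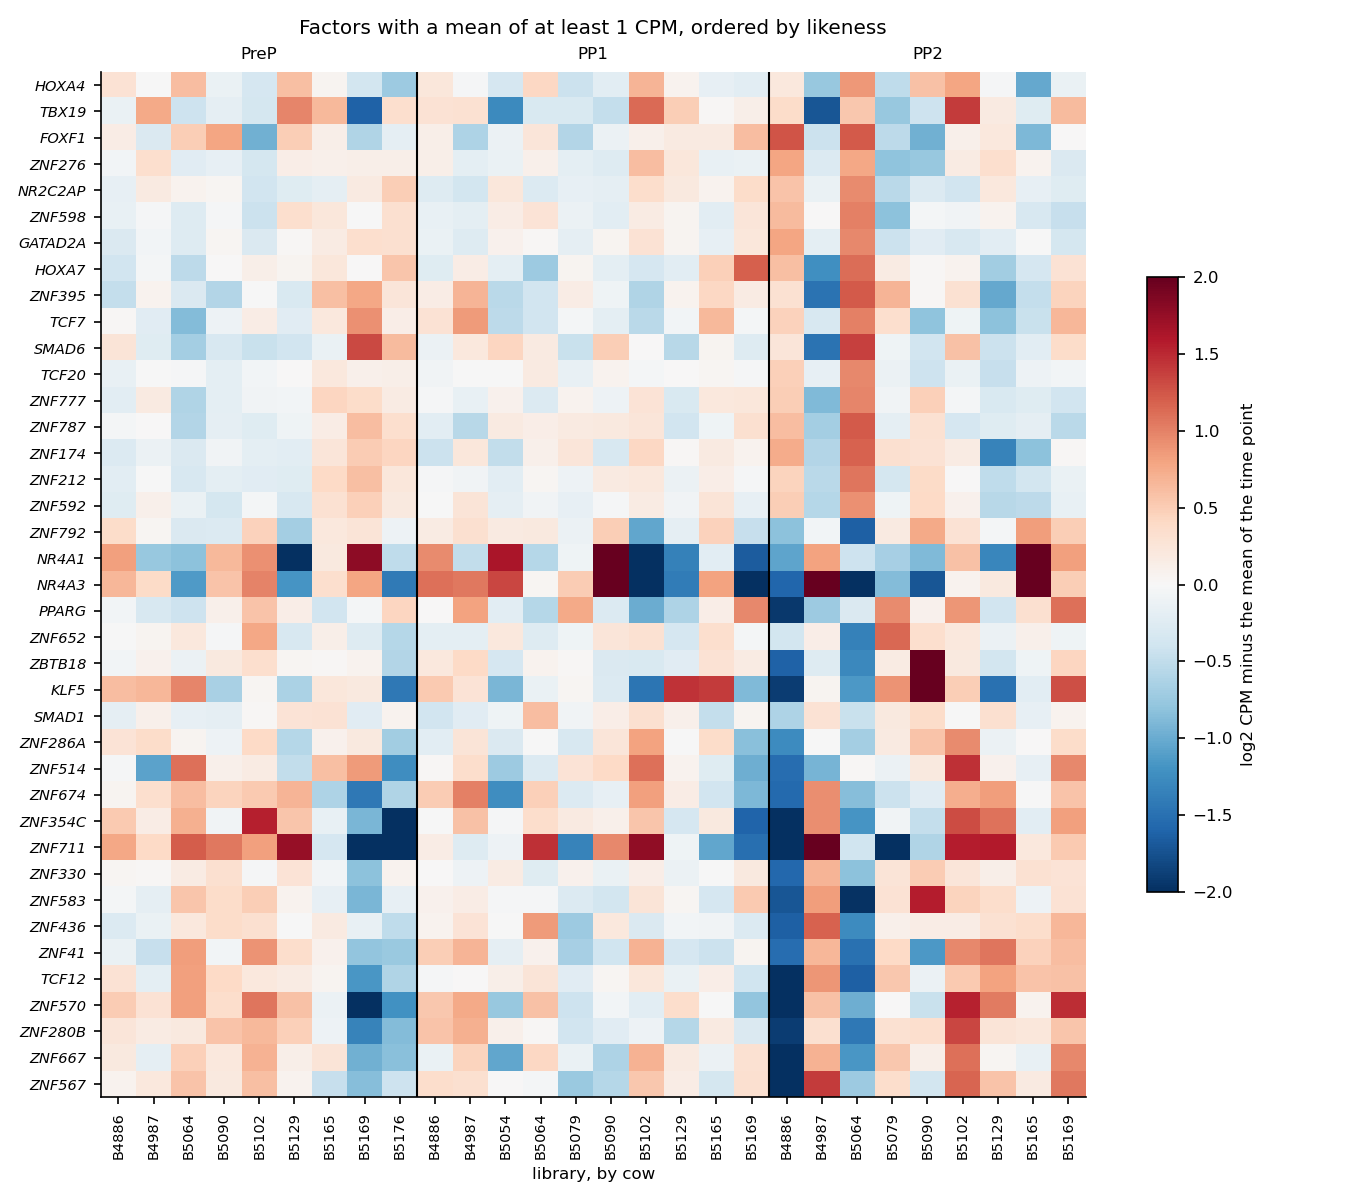
Deviation of log2 CPM from the mean of the time point (colour, -2 to 2) for 39 members (y, ordered by likeness) in the 28 libraries (x, by cow). The PP2 library of cow B5064 is high in the block around TCF20, ZNF212 and ZNF592 and low in the block around TCF12 and ZNF583, and that of cow B4886 has the lowest PP2 value of 17 members, most of them in the latter block.

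The PP2 libraries of cows B4886 and B5064 had scaling factors of 0.869 and 0.856, toward the low end of the range of 0.731 to 1.18 over all libraries. The value of 0.731 was that of the PP2 library of cow B5090. With both left out, 2 members were DEGs at PP2 against PreP, NR4A1 and NR4A3, as with all libraries. The share of all genes called in that fit is not given here, so this count has no background.

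Transcription factors with an ID whose symbols fall outside the prefixes differed about as often as all genes did. At an unadjusted p under 0.05 there were 22.6% at PP1 and 18.2% at PP2, beside 24.6% and 21.4% of all genes. Of 53 tested at PP1, 1 was a DEG, and of 55 tested at PP2, 2 were, all higher, beside 4.03% and 5.47% of all genes. PRRX2, a homeobox factor of mesenchyme, had medians of 42.2, 88.9 and 121 CPM and log2 fold changes of 1.04 (edgeR FDR 0.0351, and 0.235 with cow as a block) and 1.33 (FDR 0.0152). IRF4, a factor of immune cells and adipocytes, had medians of 6.27, 16.8 and 21.8 CPM and log2 fold changes of 1.98 (FDR 0.0623) and 1.71 (FDR 0.0385). RXRB, a partner of nuclear receptors such as PPARG, had medians of 71.4, 69.1 and 71.3 CPM and log2 fold changes of -0.15 and 0.14 (FDR 0.480 and 0.799). The median absolute log2 fold change of these genes was 0.28 at PP1 and 0.31 at PP2, beside 0.32 and 0.36 for all genes. It was 0.22 and 0.17 for the members, but 0.28 and 0.31 for the members outside ZNF. The difference from the members was not tested.

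Between PP2 and PP1, no member passed the FDR, and TBX19, described above, had the smallest p. NR4A1 had a log2 fold change of 0.14 ± 0.678 (SE, edgeR FDR 0.988), and it was higher at PP2 in 7 of 9 cows. The value rested on the PP1 library of cow B5090 at 1007 CPM, since without that cow it was 1.43 (FDR 0.954), and with cow as a block 1.29 (FDR 1.0). NR4A3 had 1.37 ± 0.711 (FDR 0.938), higher in 5 of 9 cows, and PPARG had -0.50 ± 0.349 (FDR 0.970), lower in 8 of 9 cows. The median absolute log2 fold change was 0.21 for the 46 members and 0.23 for all genes.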

How the data were processed

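The authors aligned filtered reads to bosTau7 (HISAT2 2.1.0) and assigned them to Ensembl genes with HTSeq 0.6.1, and the deposited values are raw read counts. The annotation release, strandedness and treatment of multi-mapped reads are not given in the sources used here. All 28 columns were matched to a cow and time point by their labels. Symbols were taken from the ID table of the study's supplement, whose columns of the authors' own results were not used.

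Genes needed 3 reads in 1 library of a comparison. Counts were scaled by TMM and each pair of time points was fitted by quasi-likelihood in edgeR 4.0.16 (R 4.3.3), with Benjamini-Hochberg adjustment over all genes. The study's fold change threshold was read as 1 on the log2 scale. The SE was taken as the absolute log2 fold change over the square root of the F statistic, and 95% intervals are normal intervals from it. Such an interval can be narrower than the test implies. For ZBTB18 at PP1 it ran from -0.55 to -0.013, where the unadjusted p of the edgeR quasi-likelihood test was 0.0518. Two-sided exact permutation tests used log2 CPM (prior count of 1), for 46 members in 3 comparisons, 138 in all, with unadjusted p-values. They split the libraries without regard to cow, so they did not test the change within cows. Scripts were tested on simulated data. Floors cover counting error only.

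Libraries were paired by cow, from the labels. Deviations from the time point means correlated between libraries of 1 cow by 0.149 on average for PP1 and PreP, 0.0106 for PP2 and PreP, and 0.112 for PP2 and PP1, against -0.0139, 0.00636 and -0.00958 between cows. The fits had no block, since the study's methods name pairwise edgeR comparisons and no block.

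Members described singly were those past the FDR, the 5 of smallest p in each direction against PreP, those with a known role in adipose tissue or signalling, and those outside the family of their prefix. The members and gene lists were chosen with earlier results of these data known. Alternatives were filterByExpr or a filter of 1 read, RLE or total-count scaling, the likelihood ratio test, DESeq2 (1.42.0), voom with quality weights (limma 3.58.1), a joint fit of all time points, a block for cow, complete pairs only, leave-one-cow-out and no fold threshold. Those chosen after the data were seen were bias-adjusted deviances and leaving out the PP2 library of cow B5090, the PP1 library of cow B5169, or the PP2 libraries of cows B4886 and B5064, alone or with that of cow B5090. Sequences and coordinates are not given.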

Additional observations from a re-analysis of the deposited data

Results flagged for a closer look

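In 60 groups of 9 or 10 libraries (20 members at 3 time points), Dixon's test on log2 CPM singled out 2 extreme libraries, where chance gives about 3. ZBTB18 in the PreP library of cow B5176 had a log2 CPM of 3.47, and the nearest other library had 3.94, which is 11.0 against 15.3 CPM. ZBTB18 in the PP2 library of cow B5090 had a log2 CPM of 6.76, and the nearest other library had 4.32, which is 108 against 20.0 CPM. The latter library was also the one with 9670 CPM of summed skeletal muscle markers, and the part of muscle RNA in its ZBTB18 level was not tested.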

How the results depend on the processing

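The count of member DEGs at PP1 was 0 and became 1 without the PP1 library of cow B5169 and 1 with no fold threshold, and 0 to 2 when each cow was left out. At PP2 it was 2 and became 1 with no filter beyond 1 read, with total counts, with all time points in 1 fit and with only cows with both samples, 0 with cow as a replicate block, and 0 to 3 when each cow was left out. Between PP2 and PP1 it stayed 0 under all alternatives run. Of 42 differences of single members, 26 kept their sign under all alternatives run. With the block, all genes called fell from 744 to 58 at PP1 and from 1015 to 409 at PP2. Of the members described singly, the block changed the FDR call of NR4A1, NR4A3 and HOXA7 alone. With no fold threshold, 904 of 18467 genes were higher and 264 lower at PP1. Without the PP1 library of cow B5169, PP1 FDRs also fell outside the members, as for TLE1 (0.0118 to 0.00119), PLTP (0.0114 to 0.00126), LRRC32 (0.0351 to 0.00997) and PRRX2 (0.0351 to 0.00345). Counts of all genes under the other alternatives are not given here, so the member counts there have no background. Of 15 FDR calls of genes in the fixed lists, 7 held with the block and 4 with any single cow left out. The cause of the changes was not tested. At this depth, differences of HOXC12, HOXC13, NKX6-1 and ZNF597, which lay near the floor of 3 reads, were not detectable.

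Opposite signs at PP2 against PreP were as follows. With cow as a block, the log2 fold change was -0.35 for KLF5, -0.18 for TCF12 and -0.33 for ZBTB18, and at PP1 it was 0.096 for TBX19. With limma voom it was -0.11 for GATAD2A, -0.068 for HOXA4, 0.063 for SMAD1, -0.075 for ZBTB18 and 0.22 for ZBTB41, and at PP1 0.0083 for TCF20. DESeq2 gave 0.0031 for SMAD1 and -0.36 for ZBTB18, RLE size factors 0.0030 for SMAD1, and only cows with both samples -0.020 for TCF12. Without the PP2 library of cow B5090 it was -0.027 for KLF5, 0.021 for TCF7 and -0.38 for ZBTB18. Without the PP2 libraries of cows B4886 and B5064 it was -0.23 for GATAD2A, 0.12 for SMAD1, -0.10 for TCF20, 0.22 for ZBTB41 and -0.012 for ZNF598.

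With each cow left out, signs also changed at PP2 for FOXF1 (-0.42 to 0.023), GATAD2A (-0.073 to 0.20), KLF5 (-0.10 to 0.58), SMAD1 (-0.063 to 0.053), TCF12 (-0.064 to 0.36), TCF7 (-0.29 to 0.0085), ZBTB18 (-0.35 to 0.55) and ZBTB41 (-0.47 to 0.55), at PP1 for GATAD2A (-0.030 to 0.081) and KLF5 (-0.072 to 0.40), and between PP2 and PP1 for NR4A1 (-0.42 to 1.43).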
